A study of Homo sapiens with 6 samples.

Results

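The cytosolic ribosomal protein genes encode the proteins of the large (RPL) and small (RPS) subunits of the ribosome. Their promoters were examined in ATAC-seq peak lists of 3 untreated human esophageal cell lines. Members were chosen by symbol among 20163 protein-coding genes: RPL or RPS followed by a number, RPSA, RPLP0, RPLP1 and RPLP2, without the RPS6K kinases and the paralogues whose symbols end in L. This rule took 83 symbols. 3 read-through genes and RPS19BP1, which encodes a binding partner of RPS19, were set apart, which left 79 members, 46 of the large and 33 of the small subunit. 2 of these lie on the Y chromosome and were counted but are not described.

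HET-1A is a non-cancerous esophageal epithelial line. KYSE-30 and KYSE-150 are lines of esophageal squamous cell carcinoma. HET-1A was grown in BEBM with additives and the KYSE lines in RPMI/F12 with serum, so that medium and line cannot be told apart. ATAC-seq, in which the Tn5 transposase cuts accessible DNA, was performed with 2 libraries per line. The labels number them 1 and 2 for HET-1A, 4 and 6 for KYSE-30, and 7 and 8 for KYSE-150. Peaks were called in each one separately.

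Every cell needs ribosomes, and the ribosomal protein genes are transcribed at high levels and in step with each other in growing cells. Their promoters typically lack a classical TATA box, and the transcript starts within a stretch of pyrimidines, the 5′ terminal oligopyrimidine (TOP) motif, through which the mTOR pathway controls translation of these mRNAs. The factors known to bind such promoters include members of the ETS family, YY1 and Sp1.

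Windows of 30 bases show this stretch, since it is the feature that most separates these promoters from others. They were read from the hg19 genome on the strand of the gene, with 15 bases to each side of the first base of the Ensembl canonical transcript, and capitals mark the pyrimidine run that begins at that first base. RPL39 is shown as a gene without a peak, the next 4 as genes with a peak, and RPS7, RPL9 and RPL27 as genes with a peak and no such run at the annotated base.
RPL39 (chrX:118925579-118925608, minus strand): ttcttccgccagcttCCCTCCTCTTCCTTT
RPL7A (chr9:136215058-136215087, plus strand): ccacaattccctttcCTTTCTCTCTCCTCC
RPS24 (chr10:79793606-79793635, plus strand): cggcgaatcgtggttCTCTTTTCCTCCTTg
RPS19 (chr19:42364310-42364339, plus strand): ggaaaccccgtcgttCCCTTTCCCCTggct
RPL13A (chr19:49990850-49990879, plus strand): cgacaaaacctcctcCTTTTCCaagcggct
RPS7 (chr2:3622835-3622864, plus strand): gtttccgccctcctcctcgcgctgtttccg
RPL9 (chr4:39460528-39460557, minus strand): gtacgtaatgacgacagacgttctttcttt
RPL27 (chr17:41150421-41150450, plus strand): ccggggtgaaaggttagcggaagtgtcctt

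A pyrimidine start, a C followed by at least 4 pyrimidines, stood at the annotated first base of 59 of the 79 members (74.7%) and of 4.59% of 19881 protein-coding genes with a canonical transcript. The run had a median length of 8 bases (5 to 19). When the start was allowed within 5 bases of the annotated one, 67 members (84.8%) and 21.8% of all genes had it. RPL7A and RPL27, with the sequences above, lie on either side of this difference, since RPL27 had no such start even within 5 bases. Large and small subunit genes were alike in this count, with 34 of 46 (73.9%) and 25 of 33 (75.8%). The translation factors, such as elongation and initiation factors, had it in 18 of 37 genes (48.6%), whereas mitochondrial ribosomal protein genes had it in 5 of 78 (6.41%). FAU and RACK1, ribosomal proteins under other symbols, had it too. The annotation takes start sites from sequenced transcripts, and the count describes the annotated letters only.

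Longer windows are given for 5 promoters, from 200 bases before the first transcribed base to 30 bases from it on, with every match to 7 motifs in capitals. RPS19 and RPS7 are shown for the highest fold enrichment in HET-1A and KYSE-30, RPL24 for a peak in both of these lines and a YY1 match, RPL9 for the only peak in KYSE-150, and RPS6 as a gene without a peak.
RPS19 (chr19:42364125-42364354, plus strand): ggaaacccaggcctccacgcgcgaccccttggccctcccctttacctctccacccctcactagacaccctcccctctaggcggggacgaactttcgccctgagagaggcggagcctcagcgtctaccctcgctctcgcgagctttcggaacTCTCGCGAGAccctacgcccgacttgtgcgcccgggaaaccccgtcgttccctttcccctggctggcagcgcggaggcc
RPL24 (chr3:101405533-101405762, minus strand): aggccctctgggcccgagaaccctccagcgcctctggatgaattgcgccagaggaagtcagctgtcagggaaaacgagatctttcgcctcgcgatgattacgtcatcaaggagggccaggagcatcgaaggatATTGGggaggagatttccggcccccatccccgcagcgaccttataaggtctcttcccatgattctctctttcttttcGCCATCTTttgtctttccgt
RPS7 (chr2:3622650-3622879, plus strand): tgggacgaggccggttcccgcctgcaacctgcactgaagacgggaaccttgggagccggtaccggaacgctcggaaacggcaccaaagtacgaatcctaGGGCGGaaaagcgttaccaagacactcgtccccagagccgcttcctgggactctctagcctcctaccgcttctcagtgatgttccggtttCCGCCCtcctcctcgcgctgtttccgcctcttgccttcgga
RPL9 (chr4:39460513-39460742, minus strand): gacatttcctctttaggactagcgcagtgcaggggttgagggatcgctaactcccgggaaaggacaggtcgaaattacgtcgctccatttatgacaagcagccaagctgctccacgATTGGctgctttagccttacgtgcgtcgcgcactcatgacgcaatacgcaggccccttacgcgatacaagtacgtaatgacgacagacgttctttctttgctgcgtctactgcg
RPS6 (chr9:19380205-19380434, minus strand): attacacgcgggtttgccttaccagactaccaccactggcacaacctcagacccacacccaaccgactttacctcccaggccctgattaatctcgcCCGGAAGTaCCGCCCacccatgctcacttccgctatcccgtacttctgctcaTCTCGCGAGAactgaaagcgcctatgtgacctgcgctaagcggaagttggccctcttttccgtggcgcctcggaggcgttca

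The capitals in RPS19 mark the palindrome of ZBTB33, which begins at base -49, where base 1 is the first transcribed base and -1 the one before it. RPL24 held CCAAT, the NF-Y box, on the reverse strand at -67 and AAGATGGC of YY1, also on the reverse strand, at 11, downstream of the start. RPS7 held GGGCGG of the Sp family at -101 and, on the reverse strand, at -11. RPL9 held only CCAAT, on the reverse strand at -84. RPS6, without a peak in any library, held CCGGAAGT of the ETS family at -104, GGGCGG on the reverse strand at -95 and the ZBTB33 palindrome at -52.

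The same motifs were counted on both strands of windows from 250 bases before to 50 bases after the start in all genes. AAGATGGC (YY1) was present in 10 of 79 members (12.7%) and 4.05% of all genes, and 9 of its 10 matches lay downstream of the start. CCGGAAGT (ETS family) was present in 10 members (12.7%) and 6.16% of all genes, always upstream, at a median of -60. The ZBTB33 palindrome was present in 5 members (6.33%) and 0.634% of all genes, and the NRF1 palindrome in 11 (13.9%) and 8.43%. TATAAA was found in 6 members (7.59%), against 9.62% of all genes. Its 7 matches in members began at a median of -30, and 3 of them were on the strand of the gene. The frequent motifs were no more frequent in members: GGGCGG was present in 46 (58.2%) and 61.4% of all genes, and CCAAT in 26 (32.9%) and 36.0%. Each motif was counted on its own, also where matches overlapped, and a match describes letters and not binding. The GC content of the window had a median of 59.3% in members and 63.7% in all genes, and the ratio of observed to expected CpG was 0.920 and 0.776.

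**Figure D1:**
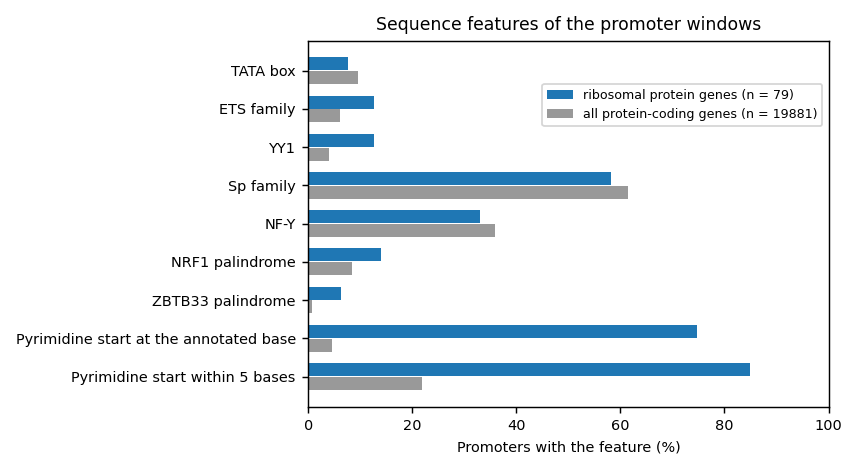
Share of promoter windows (x axis, percent) with each motif or pyrimidine start (y axis) among the 79 ribosomal protein genes (blue) and 19881 protein-coding genes (grey). The pyrimidine start at the annotated base separates the groups most, with 74.7% against 4.59%.

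The peak lists were of very unequal length. HET-1A library 1 held 168 peaks and library 2 held 15979, KYSE-150 libraries 7 and 8 held 547 and 259, and KYSE-30 libraries 4 and 6 held 1255 and 11671. The lists of HET-1A library 2 and KYSE-30 library 6 are called the long lists. Read totals are not used here. The background over the whole genome was 1.49 to 3.34 tags (transposase cut sites extended to 200 bp) per position. It was 1.88 and 3.34 in HET-1A libraries 1 and 2, and 2.80 and 2.64 in KYSE-150 libraries 7 and 8. In KYSE-30 libraries 4 and 6 it was 2.36 and 1.49. List length thus did not follow this background, and what set the length was not tested. A peak at the genome background needed at least 8 to 13 tags at its summit, with 8 in KYSE-30 library 6. A gene without a peak was therefore not detected as accessible in that library, which is not the same as closed. Of 7 epithelial genes looked up to check the lines, EPCAM, KRT8 and KRT18 had a promoter peak in the long HET-1A list and EPCAM and KRT8 in the long KYSE-30 list. CDH1, KRT5, KRT14 and TP63 had none in any library, and the other 4 libraries had no peak at any of the 7.

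Ribosomal protein promoters were detected almost wholly in the long lists. A peak counted for a gene when any base of it lay within 1 kb of an annotated start site of that gene. In the long HET-1A list, 37 of 79 members had a peak (46.8%, Wilson 95% interval 36.2 to 57.7), and 31.7% of all protein-coding genes did. In the long KYSE-30 list, 38 members had one (48.1%, 37.4 to 58.9), and 26.4% of all genes did. These intervals cover counting error only, and genes are not replicates.

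The other lists held few of them. KYSE-30 library 4 had a peak at 3 of 79 members (3.80%), RPL30 and RPL7A among them, with 3.51% of all genes. KYSE-150 library 7 had a peak at RPL9 alone (1.27%), with 1.66% of all genes. HET-1A library 1 and KYSE-150 library 8 had none, which allows a share of up to 3.80%, and 0.0446% and 0.243% of all genes had a peak there. In these 4 lists the share of all genes lay within the Wilson interval of the members' share. An exact permutation test of 2 libraries against 2 gives a two-sided p of 0.33 at best, and with 1 long list each in HET-1A and KYSE-30 the line and the library cannot be told apart, so no difference between lines was tested.

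**Figure D2:**
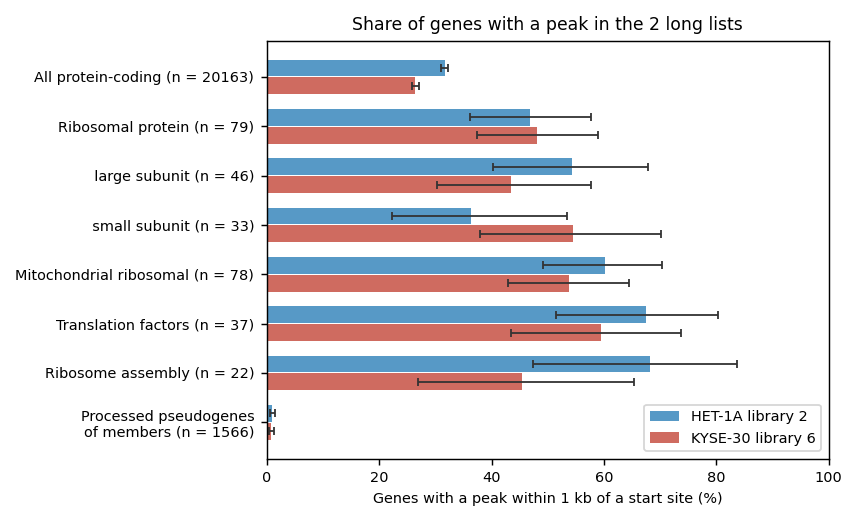
Share of genes with a peak within 1 kb of a start site (x axis, percent) in HET-1A library 2 (blue) and KYSE-30 library 6 (red) for gene groups (y axis), with Wilson 95% intervals for counting error. Ribosomal protein genes stand at 46.8% and 48.1%, above all protein-coding genes at 31.7% and 26.4% and below translation factors at 67.6% and 59.5%.

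Across the 6 libraries, 52 of 79 members (65.8%) had a peak in at least 1, and 41.8% of all genes did. A peak in 3 libraries was found at 1 member, in 2 at 25, in 1 at 26 and in none at 27. Peaks in KYSE-30 libraries 4 and 6 were found at 2 of 79 members (2.53%), RPL30 among them, with 2.93% of all genes, and no member had a peak in both libraries of HET-1A or of KYSE-150, where 0.0248% and 0.0496% of all genes did. Both long lists held 23 members (29.1%), with 16.7% of all genes. Only the HET-1A one of the long lists held 14 members (17.7%), with 15% of all genes, and only the KYSE-30 one held 15 (18.99%), with 9.69%.

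At RPL30, a protein of the large subunit, the fold enrichment was 4.30 in library 4 of KYSE-30 and 5.61 in the long KYSE-30 list, with 20 tags at the summit in both. Fold enrichment divides the tags at the summit by the background around the peak in that library, after adding 1 to both, and is set beside the rank of the peak in its own list, since backgrounds differ between libraries. RPL30 ranked 615 of 1255 and 5456 of 11671, that is at 49.0% and 46.7% of the lists. The local background there was 1.64 and 1.84 times that of the genome. The summits lay upstream, at -57 and -46 bp from the nearest annotated start site, and HET-1A and KYSE-150 had no peak at this gene.

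In KYSE-150, RPL9, a protein of the large subunit, had a peak with a fold enrichment of 4.27 and 24 tags, at rank 208 of 547 (library 7). In the long HET-1A list the peak at RPL9 had 5.76 and also 24 tags, at rank 1826 of 15979. The summit lay at 2 bp from the nearest start in KYSE-150 and upstream, at -107 bp, in HET-1A. LIAS, the lipoic acid synthase gene, starts within 1 kb of RPL9, and the peaks count for both.

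**Figure D3:**
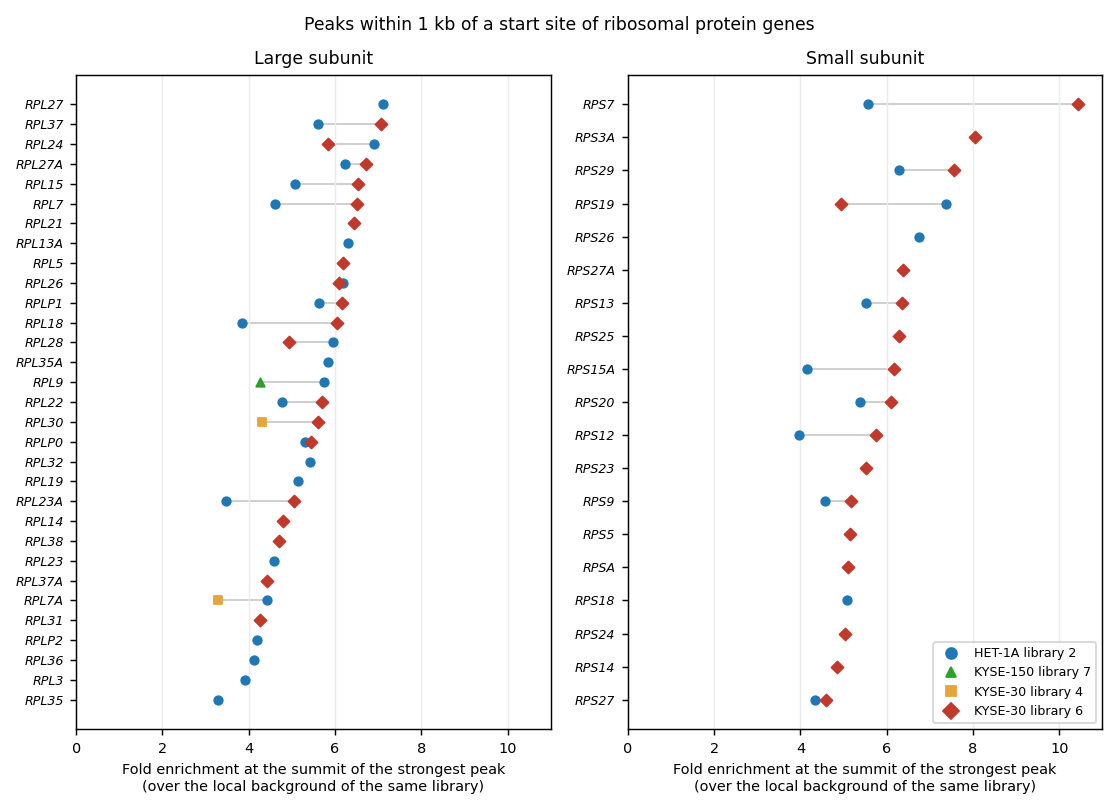
Fold enrichment (x axis) at the strongest peak within 1 kb of a start site for 50 of the 52 ribosomal protein genes with a peak, ordered by their highest value, in the large (left) and small (right) subunit. Symbols mark single libraries, a grey line joins libraries of the same gene, and a missing symbol means no called peak. RPS7 in KYSE-30 library 6 stands highest at 10.4.

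In the long HET-1A list the strongest peak of each member had a median fold enrichment of 5.30 (3.29 to 7.37), and that of all genes with a peak had 4.83. RPS19, a small subunit protein and the gene most often mutated in Diamond-Blackfan anaemia, had the highest, 7.37 with 31 tags, at rank 273 of 15979. RPL27 followed with 7.12 (rank 391), RPL24 with 6.91 (rank 497) and RPS26 with 6.74 (rank 615). These 4 genes thus lay in the first 3.85% of the list. RPS29 and RPL13A had 6.29 each, RPL27A 6.22, RPL26 6.18 and RPL28 5.95. The lowest member was RPL35 at 3.29, rank 13107.

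In the long KYSE-30 list the median was 5.72 (4.26 to 10.4), and that of all genes with a peak was 5.81. RPS7, a small subunit protein that also binds MDM2, stood apart with 10.4 and 43 tags, at rank 176 of 11671. RPS3A had 8.04 (rank 1080), RPS29 7.57 (rank 1525) and RPL37 7.07 (rank 2131). RPL27A had 6.73, RPL15 6.52, RPL7 6.504, RPL21 6.43, RPS27A 6.38 and RPS13 6.36. RPL37 had as many tags as RPS7, 43, over a local background 3.51 times that of the genome, against 2.16 times at RPS7. The lowest member was RPL31 at 4.26, rank 10186.

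Read by rank, members sat higher among the peaks of the long HET-1A list than the genes in general, whereas in the long KYSE-30 list the medians were close and members were sparser at the top. The median rank was 18.8% of the list in HET-1A (quartiles 10.4 and 43.1), where 0 is the top, and 31.1% (13.4 and 54.3) for all genes with a peak. In KYSE-30 it was 42.6% (29.6 and 65.2) and 40.6% (17.9 and 66.1). In the first 10% of the list lay 9 of 37 members (24.3%) in HET-1A, with 19.6% of all genes with a peak, and 2 of 38 (5.26%), RPS7 and RPS3A, in KYSE-30, with 14.4%. The tags at the summit did not separate members from other genes, with medians of 28 and 28 in HET-1A and 18 and 18 in KYSE-30. Ordered by p-value, the median rank was 27.8% for members and 30.7% for all genes in HET-1A, and 42.5% and 39.3% in KYSE-30. A local background of at least 1.5 times that of the genome lay under 14 of 37 members (37.8%) in HET-1A and 45.0% of all genes with a peak, and under 23 of 38 (60.5%) and 53.0% in KYSE-30. Over the genome background in place of the local one, the median fold enrichment was 6.68 for members and for all genes with a peak in HET-1A. In KYSE-30 it was 7.64 for both. The part of the local background in the rank was not tested further.

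**Figure D4:**
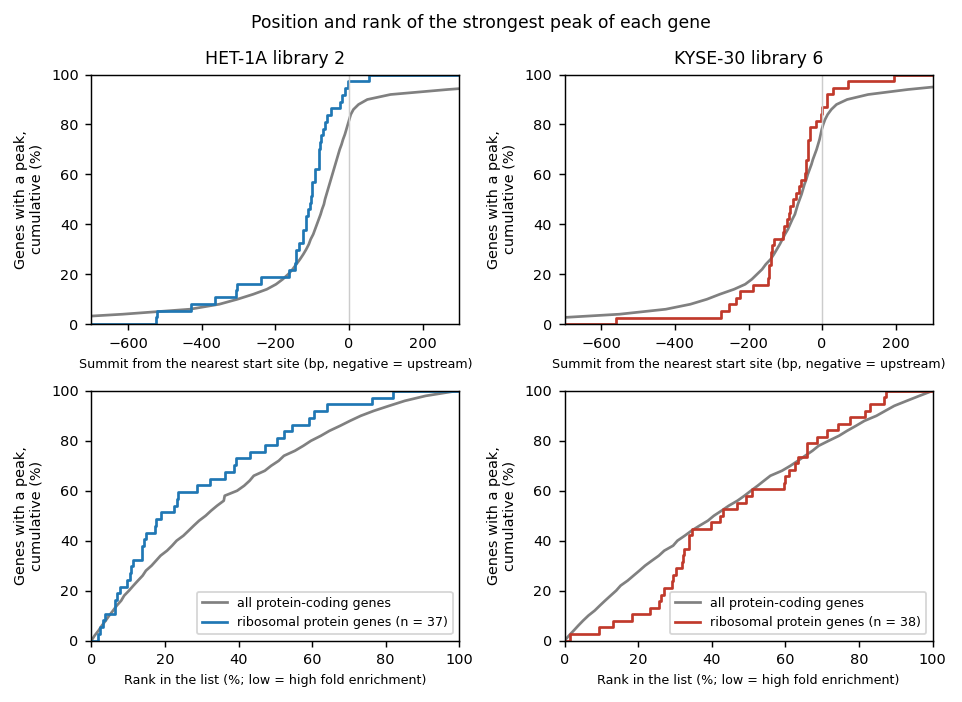
Cumulative share (y axis, percent) of genes with a peak by the summit's distance from the nearest start site (top, bp along the strand of the gene, without summits farther away) and by rank (bottom, percent of the list), for ribosomal protein genes (coloured steps) and all protein-coding genes (grey), in HET-1A library 2 (left) and KYSE-30 library 6 (right). In HET-1A the steps reach 97.3% at the start site, and the median rank is 18.8% against 31.1% for all genes.

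The summits lay upstream of the nearest annotated start site in nearly all members of the long HET-1A list and in most of the long KYSE-30 list. In the long HET-1A list the median offset from the nearest start was -103 bp (quartiles -145 and -77), and -65 bp in all genes with a peak. Upstream lay 36 of 37 summits (97.3%), with 81.2% for all genes, and RPL15 was the exception at 55 bp downstream. Members had a median of 8 annotated starts, and the RPL15 summit lay at -98 bp from the canonical one. In the long KYSE-30 list the median was -75 bp in members and -61 bp in all genes, and 32 of 38 summits (84.2%) lay upstream, with 78.1% for all genes. Of the others, RPL21, RPL38, RPLP0 and RPL7 had summits upstream of the canonical start, at -126, -83, -70 and -610 bp. Those of RPS7 and RPS14 lay downstream of it, at 12 and 304 bp. The RPL27A summits, upstream of the nearest start, lay downstream of the canonical one in both long lists. Within 100 bp of a start lay 16 of 37 summits (43.2%) in HET-1A, with 56.7% for all genes, and 22 of 38 (57.9%) and 55.2% in KYSE-30. The summits of RPS19 lay far upstream in both long lists, at -560 bp in KYSE-30 and -522 bp in HET-1A. The peak at RPS19 in HET-1A, at chr19:42363621-42364279, ended 46 bp before the first transcribed base and its summit fell outside the window printed above.

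The strongest peaks of RPL27A and RPL36 lay away from the canonical start. At RPL27A the strongest peak lay near annotated start sites about 6 kb downstream in both long lists, with summits 6222 and 6206 bp from the canonical start. A second peak, with a fold enrichment of 5.00, covered the canonical start in the long KYSE-30 list, and the long HET-1A list had none there. At RPL36 the strongest peak of the long HET-1A list lay at the starts of HSD11B1L and MICOS13, at -9633 bp, and a second peak of 3.94 covered the canonical start. Peaks were also shared with neighbours: 12 of 37 in HET-1A (32.4%, with 33.3% for all genes) and 7 of 38 in KYSE-30 (18.4%, with 33.3%) lay within 1 kb of another protein-coding gene, such as NKIRAS1 at RPL15, SPHK2 at RPL18 and SLC18B1 at RPS12.

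The 23 members in both long lists made up 62.2% of those with a peak in the long HET-1A list and 60.5% of those in the long KYSE-30 list. For all genes these shares were 52.7% and 63.3%. The strongest peaks of 22 of the 23 overlapped between the libraries. Their summits lay a median of 43 bp apart (at most 337 bp), and 17 lay within 100 bp. These positions were not computed for all genes of both lists, so the overlap is not read as particular to members. The fold enrichments of the 2 libraries went together only weakly over the 23 genes, with Pearson's r = 0.15 and Spearman's rho = 0.19. Over the 3368 genes of both lists rho was 0.22, and all points share the same pair of libraries. Only genes called in both lists enter these values. Member peaks rested on 16 to 56 tags in the long HET-1A list and 10 to 43 in the long KYSE-30 list. Whether these limits lowered the correlation was not tested. RPS19 was 7.37 in HET-1A and 4.93 in KYSE-30, whereas RPS7 was 5.58 and 10.4. RPS29 was high in both, at 6.29 and 7.57. A better rank as a percent of the list in HET-1A than in KYSE-30 was held by 17 of the 23, and by 65.8% of all genes in both.

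**Figure D5:**
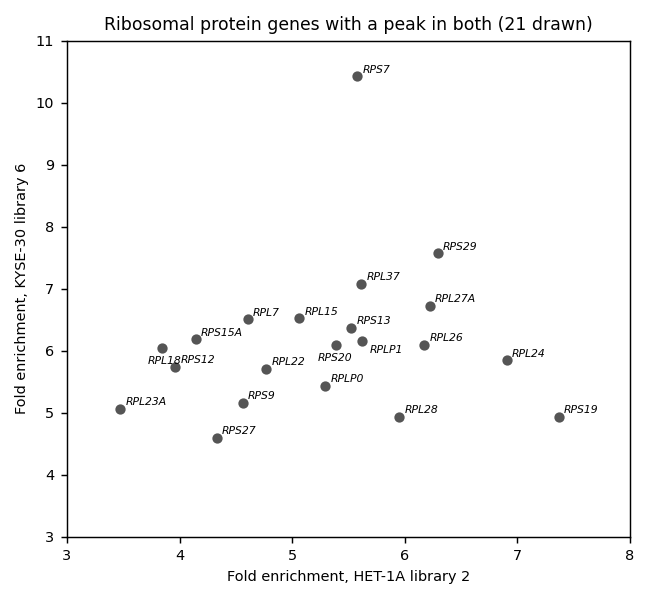
Fold enrichment in HET-1A library 2 (x axis) and KYSE-30 library 6 (y axis) of 21 of the 23 ribosomal protein genes with a peak in both, 1 point per gene. The points are scattered (Spearman's rho = 0.19 over the 23), with RPS7 highest in KYSE-30 at 10.4 and RPS19 highest in HET-1A at 7.37.

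By subunit, 25 of 46 large subunit genes (54.3%, interval 40.2 to 67.8) and 12 of 33 small subunit genes (36.4%, 22.2 to 53.4) had a peak in the long HET-1A list. In the long KYSE-30 list the order was opposite, with 20 of 46 (43.5%, 30.2 to 57.8) and 18 of 33 (54.5%, 38.0 to 70.2). The intervals overlapped in both libraries. The median fold enrichments of large and small subunit genes were 5.30 and 5.23 in HET-1A and 5.77 and 5.63 in KYSE-30.

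The acidic stalk, which recruits translation factors to the ribosome, is formed by RPLP0, RPLP1 and RPLP2. All 3 genes had a peak in the long HET-1A list, at 5.30, 5.63 and 4.20, and RPLP0 and RPLP1 had one in the long KYSE-30 list, at 5.43 and 6.16. The RPLP2 peak ended 303 bp before the canonical start and also lay within 1 kb of PIDD1. Its summit lay at -428 bp from the nearest start. The Wilson intervals of the stalk genes' shares were 43.9 to 100% in HET-1A and 20.8 to 93.9% in KYSE-30, beside 31.7% and 26.4% for all genes. Of RPL5 and RPL11, which with 5S RNA form the particle that binds MDM2, RPL5 had a peak in the long KYSE-30 list at 6.18, and RPL11 had none. RPS27A, made as a fusion with ubiquitin, had a peak in the long KYSE-30 list only, at 6.38, within 1 kb of CLHC1. The 4 X-linked members RPS4X, RPL10, RPL36A and RPL39 had no peak in any library (0 of 4, which allows a share of up to 75% in a library), where 10.2% and 13.8% of 869 X-linked protein-coding genes had one in the long HET-1A list and the long KYSE-30 list.

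A fixed list held 11 members mutated in Diamond-Blackfan anaemia, an inherited failure of red cell production, and need not be complete. Of these 11, 6 had a peak in each long list (54.5%, interval 28.0 to 78.7, with 46.8% and 48.1% of all members and 31.7% and 26.4% of all genes). RPS19, RPS7, RPS29 and RPL26 did so in both, RPS26 (6.74) and RPL35A (5.84) in the long HET-1A list, and RPL5 (6.18) and RPS24 (5.03) in the long KYSE-30 list. RPL11 and RPS10 had none. Of 29 members that host snoRNA genes, which guide the modification of ribosomal RNA, 15 (51.7%) had a peak in the long HET-1A list and 14 (48.3%) in the long KYSE-30 list, and of the 50 that do not, 22 and 24. Chromosome 19 carried 12 members, with a peak at 8 and 7 of them, where 39.5% and 19.4% of its protein-coding genes had one.

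The members without a peak in any library were 14 of the large and 13 of the small subunit. Among them were RPL4, RPL6, RPL8, RPL10, RPL10A, RPL11, RPL12, RPL13, RPL17, RPL29, RPL34, RPL36A, RPL39, RPL41, RPS2, RPS3, RPS4X, RPS6, RPS10, RPS15, RPS16, RPS21 and RPS28, and the 2 Y-linked genes. Of the 27, 18 had a pyrimidine start at the annotated base, as had 41 of the 52 with a peak. The pyrimidine start was present in 26 of the 37 with a peak in the long HET-1A list and in 34 of the 38 in the long KYSE-30 list. CCGGAAGT stood in 1 of the 27 and 9 of the 52, AAGATGGC in 2 and 8, CCAAT in 6 and 20, and GGGCGG in 19 and 27. Their windows had a median GC content of 60.0%, and those of the 52 had 59.3%.

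Other genes of translation had a peak in higher shares than the ribosomal protein genes in the long HET-1A list, with overlapping intervals. Translation factors had one in 25 of 37 genes there (67.6%, interval 51.5 to 80.4) and in 22 (59.5%, 43.5 to 73.7) in the long KYSE-30 list. Ribosome assembly genes, such as those of nucleolar proteins, had one in 15 of 22 (68.2%, 47.3 to 83.6) and 10 of 22 (45.5%, 26.9 to 65.3). Mitochondrial ribosomal proteins, encoded in the nucleus, had one in 47 of 78 (60.3%, 49.2 to 70.4) and 42 of 78 (53.8%, 42.9 to 64.5). In KYSE-30 the intervals of these groups and of the members overlapped too. FAU, made as a fusion with a ubiquitin-like protein, had a peak of 5.61 in the long HET-1A list, whereas RACK1 had none.

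Of 8 paralogues outside the rule, 3 had a peak in the long HET-1A list (37.5%, interval 13.7 to 69.4, with 31.7% of all genes). In the long KYSE-30 list 5 did (62.5%, 30.6 to 86.3, with 26.4%), and the intervals overlapped. RPL36AL, the autosomal copy of the X-linked RPL36A, had one of 6.15 in the long HET-1A list, 6.24 in KYSE-30 library 4 (rank 46 of 1255) and 4.67 in the long KYSE-30 list, whereas RPL36A had none in any library. The human genome carries many processed pseudogenes of ribosomal protein genes, copies of the mRNA that lack the promoter. Of 1566 such copies of the members, 14 (0.894%) had a peak in the long HET-1A list and 12 (0.766%) in the long KYSE-30 list, and of 9019 other processed pseudogenes 1.15% and 0.965% did.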

How the data were processed

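ATAC-seq libraries of HET-1A, KYSE-150 and KYSE-30 (2 each, labelled as separate libraries) were analysed from the peak lists of the authors, 1 list per library. Per the study's methods and labels, reads were trimmed, mapped to hg19 with Bowtie2 2.3.3.1, marked for duplicates with Picard 2.2.1, filtered with bedtools 2.7.1, shifted for Tn5 and reduced to fragments under 100 bp, and peaks were called with MACS2 2.1.0.20160309 at a q-value of 0.05, without pooling and with tags extended to 200 bp. The deposited lists give for each peak a score, a fold enrichment (a ratio of tags to the local background, after adding 1 to both), a −log10 p-value and a −log10 q-value. Read totals are not used here, and precision is limited by the tags at the summit. A short list lowers the number of genes with a peak, whatever the promoter.

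Tags and local background were recovered from fold enrichment and p-value, since 1 whole number of tags satisfies both within 0.001 of −log10 p, for 100% of the peaks to 3 digits. The recovery and the assignment of peaks to genes were tested on simulated data. The local background is never below that of the genome, and its lowest value in a library was taken as the genome background.

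Start sites came from every transcript of GENCODE 44 lifted to hg19, canonical starts from the Ensembl canonical transcript, and sequences from the hg19 genome. All peaks lay within its chromosomes. The strongest peak of a gene is that of highest fold enrichment within 1 kb of a start, and rank 1 is the highest fold enrichment in the list. Named were each member with a peak in at least 3 libraries or in HET-1A library 1 or KYSE-150, the 10 of highest fold enrichment in each long list, the gene groups, and the members without a peak. Some genes that this rule names are counted but not reported here. Others were named after their values were seen: the lowest member of each long list, RPL30 and RPL7A of KYSE-30 library 4, RPL24 for its sequence, genes whose peak lay far from the canonical start or near another gene, RPL15 and the other members with a summit downstream of the nearest start, and the neighbours and paralogues with a peak. The members, gene lists and motifs were chosen with earlier results of these data known, and the 7 epithelial genes, the snoRNA hosts and the sets by chromosome were looked up afterwards.

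Shares have Wilson 95% intervals, and a count of 0 was given the limit of 3 counts. No test was run between lines or gene lists. Alternatives were a q-value under 0.01 or 0.001, distances of 500 bp and 3 kb, the summit within 1 kb, canonical starts only, 168 peaks per library, every symbol the rule takes, 1 library of a line sufficing, libraries left out in turn, ranks by p-value or among promoter peaks, and tags over the genome background. The nearest start of any gene was added after the data were seen. Python 3.11.15, numpy 2.4.6, pandas 2.3.3, scipy 1.17.1 and matplotlib 3.10.9 were used.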

Additional observations from a re-analysis of the deposited data

How the results depend on the processing

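Lists cut to their 168 peaks of smallest p-value changed the counts most. Members with a peak then numbered 0 in the long HET-1A list, 1 in the long KYSE-30 list and 0 in KYSE-30 library 4, 2 had a peak in any library, 0 in both long lists and 0 in both libraries of KYSE-30. The share of all genes was 0.476% and 0.749% in the long HET-1A and KYSE-30 lists, 0.521% in KYSE-30 library 4, and 0.565% (library 7) and 0.149% (library 8) for KYSE-150. Counting either library in place of both gave 37 members in HET-1A, 1 in KYSE-150 and 39 in KYSE-30, with 31.7%, 1.85% and 27.0% of all genes. With 1 library left out, the members in the remaining library ranged from 0 to 37 in HET-1A, 0 to 1 in KYSE-150 and 3 to 38 in KYSE-30. Members in any library ranged from 38 (without KYSE-30 library 6) and 40 (without HET-1A library 2) to 52.

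A distance of 3 kb gave 0.0942% of all genes in HET-1A library 1, and canonical starts only gave 0.0251% there and 0.126% in KYSE-150 library 8. With canonical starts the median summit offset of members was -133 bp in HET-1A library 2. Over the genome background in place of the local one, the median fold enrichment of members was 6.68 and 7.64 in the long lists, equal to that of all genes (6.68 and 7.64). The other 175 values stayed within 1.5 times of those reported or, for medians, within the 95% interval of the median over genes. The nearest start of any gene, chosen after seeing the data, left 30 and 36 members in the long lists of HET-1A and KYSE-30, with 26.7% and 22.2% of all genes. The tags that a call needs limit every count: a promoter under 8 to 13 tags, depending on the library, could not be called. No paired analysis was possible because the library numbers do not repeat between lines.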
